A study of Mus musculus with 9 samples.

Results

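Mouse chromosome 7 was followed gene by gene in its order, from one end to the other, in clones of mouse embryonic cells of different ploidy, which is how many sets of chromosomes a cell holds. A gene was included when its RefSeq accession on the array maps to chromosome 7 and its brightest probe was called well above background by the scanner software on all 3 arrays of at least 1 ploidy. This gave 984 genes of the 1802 chromosome 7 genes with a probe, or 7.91% of the 12434 named genes kept on all chromosomes, and 818 chromosome 7 genes were too dim. The chromosome itself was chosen by its measured shift from the diploid clones, and the genes were selected on array signal. The shifts below are therefore a description, and no test is given for them.

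The 9 samples were 3 diploid, 3 triploid and 3 tetraploid clones, with 1 one-colour (Cy3) array each. All 9 carry the genotype p53-/-, so no clone with p53 was measured, and the free-text notes of all clones but diploid clone 1 give other numbers in place of p53, read here as entry errors. The cells were embryonic cells kept in minimal essential medium with fetal bovine serum and were untreated before RNA was taken. The labels give no age, sex or passage, and they do not say whether the clones of a ploidy came from separate animals or cultures, so the spread between clones may be partly technical. Each array measured the RNA of a bulk culture, in which fewer cells with a transcript and less of it per cell cannot be told apart.

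Chromosome 7 of the mouse is gene dense. It carries long runs of zinc finger genes and of olfactory receptor genes, and imprinted clusters, in which expression depends on the parent a copy came from. Its other genes serve general cell functions, among them ribosomal proteins, glycolytic enzymes, DNA repair factors and Bax, a cell death effector that p53 can activate. In a polyploid cell every chromosome is present in more copies, and an array labelled from equal amounts of RNA reports each gene relative to the other genes of the same cells. A shift of a chromosome is here its difference relative to the rest of the genome of the same clone, and not an amount per cell.

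A level is the log2 processed signal of a gene's brightest probe minus the 75th percentile of its array. It was further centred so that the median difference of a clone from the diploid clones, over all named genes, is 0. A shift is a clone's level minus the mean of the diploid clones, or of the other 2 for a diploid clone. For a single gene, the ± beside a difference of group means is the SD of the 3 polyploid clones alone. It leaves out the spread of the diploid clones and is not the precision of the difference. Before the centring on the median, the 6 polyploid clones had median differences of 0.01 to 0.19. Between 44.8% and 50.9% of spots per array were well above background and 0 were saturated. Slide 1 held diploid clone 1 alone, and slide 2 held the other 8 arrays. Over levels of all named genes, triploid clone 1 stood apart from triploid clones 2 and 3, with Pearson's r across genes of 0.922 and 0.935 against 0.980 between the latter. Of the mesenchymal markers, 8 of 9 were above background on all 9 arrays, as were 3 of 3 neural, 2 of 3 endothelial (Kdr and Pecam1), 1 of 5 pluripotent (Nanog) and 0 of 5 epithelial markers. Of the epithelial markers, Krt18 was above background on 6 arrays, Krt8 on 2, Cldn4 on 1 and Epcam and Cdh1 on 0, and both blood markers measured were on 0 arrays. The labels say no more than embryonic cells. The probe of Trp53, the p53 gene, was above background on 1 array. Whether it lies in the deleted part is not given, so it does not check the genotype.

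The regulatory start regions of 5 of the genes are shown, because they sit on opposite sides of the chromosome-wide pattern. Levels of Fes, Psmd8 and Bax lay below all diploid clones in all 6 polyploid clones, and levels of Hdgfl3 and Nucb1 lay above all diploid clones in the 3 tetraploid clones. The RefSeq sequences (build GRCm38.p6) hold the 250 bases before each start, 5′ to 3′ in the direction of the gene, with CG dinucleotides, the sites of DNA methylation in mammals, in capitals. They lie at chr7:80387947-80388196 (minus strand), chr7:29180674-29180923 (minus), chr7:45466899-45467148 (minus), chr7:81934460-81934709 (minus) and chr7:45510409-45510658 (minus).
Fes: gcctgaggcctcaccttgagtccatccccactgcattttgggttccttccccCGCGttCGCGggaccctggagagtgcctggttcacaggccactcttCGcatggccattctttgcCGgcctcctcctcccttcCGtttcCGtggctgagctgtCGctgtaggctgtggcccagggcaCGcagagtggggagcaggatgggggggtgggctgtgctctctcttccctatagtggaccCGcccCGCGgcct
Psmd8: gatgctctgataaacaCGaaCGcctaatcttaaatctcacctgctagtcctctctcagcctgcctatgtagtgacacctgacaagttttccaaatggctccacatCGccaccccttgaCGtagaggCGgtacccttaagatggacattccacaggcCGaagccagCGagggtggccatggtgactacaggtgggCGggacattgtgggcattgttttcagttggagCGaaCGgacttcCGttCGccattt
Bax: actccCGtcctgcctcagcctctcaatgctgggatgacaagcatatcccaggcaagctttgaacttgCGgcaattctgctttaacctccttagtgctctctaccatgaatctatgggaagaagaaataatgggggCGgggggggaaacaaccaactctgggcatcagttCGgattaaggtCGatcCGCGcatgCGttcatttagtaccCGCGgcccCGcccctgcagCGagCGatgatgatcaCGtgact
Hdgfl3: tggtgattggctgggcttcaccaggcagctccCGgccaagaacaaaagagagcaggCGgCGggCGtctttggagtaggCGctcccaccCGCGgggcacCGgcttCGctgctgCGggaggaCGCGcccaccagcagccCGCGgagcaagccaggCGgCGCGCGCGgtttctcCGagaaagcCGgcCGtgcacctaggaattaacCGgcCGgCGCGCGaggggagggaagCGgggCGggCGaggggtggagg
Nucb1: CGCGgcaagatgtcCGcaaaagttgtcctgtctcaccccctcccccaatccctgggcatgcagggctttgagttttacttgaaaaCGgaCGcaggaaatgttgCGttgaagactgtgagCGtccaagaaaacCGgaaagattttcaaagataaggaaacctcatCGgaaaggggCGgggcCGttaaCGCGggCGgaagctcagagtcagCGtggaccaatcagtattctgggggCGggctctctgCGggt
CG was found 13 times before Fes, 12 times before Psmd8, 14 times before Bax, 30 times before Hdgfl3 and 17 times before Nucb1. Over the 846 members with a RefSeq entry the median was 13.  These are letters in a window and carry no measurement of methylation.

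The main observation was a downward shift of the chromosome as a whole in every polyploid clone. The median over the 984 genes was -0.21, -0.52 and -0.44 in triploid clones 1 to 3 (mean -0.39 ± 0.16, SD, n = 3). It was -0.22, -0.33 and -0.18 in tetraploid clones 1 to 3 (mean -0.24 ± 0.08, SD, n = 3). In the diploid clones it was -0.05, 0.04 and -0.02. With no filter on dim probes the triploid mean was -0.15, and with 75th percentile scaling alone the tetraploid mean was -0.14. The 6 polyploid values were all below the 3 diploid values, and the triploid and tetraploid ranges overlapped. Without triploid clone 1 the triploid mean was -0.49, and within slide 2, that is without diploid clone 1, the group means were -0.39 and -0.25. On the linear scale the median gene stood at 86.5%, 69.7% and 73.5% of its diploid level in triploid clones 1 to 3 and at 85.7%, 79.4% and 88.5% in tetraploid clones 1 to 3.

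The shift was carried by most of the genes. In triploid clones 1 to 3, 64.3%, 82.1% and 81.3% of the genes had a shift below 0, and in tetraploid clones 1 to 3 the shares were 70.9%, 76.1% and 62.7%. On the other chromosomes 47.2% to 48.9% of genes were below 0 in these 6 clones. The interquartile range of shifts on chromosome 7 was 0.80, 0.89 and 0.80 in triploid clones 1 to 3, against 0.79, 0.91 and 0.92 on the other chromosomes. It was 0.53, 0.66 and 0.83 in tetraploid clones 1 to 3, against 0.56, 0.76 and 0.92. The distribution thus had a lower centre and, in 5 of the 6 clones, a somewhat smaller width.

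**Figure D1:**
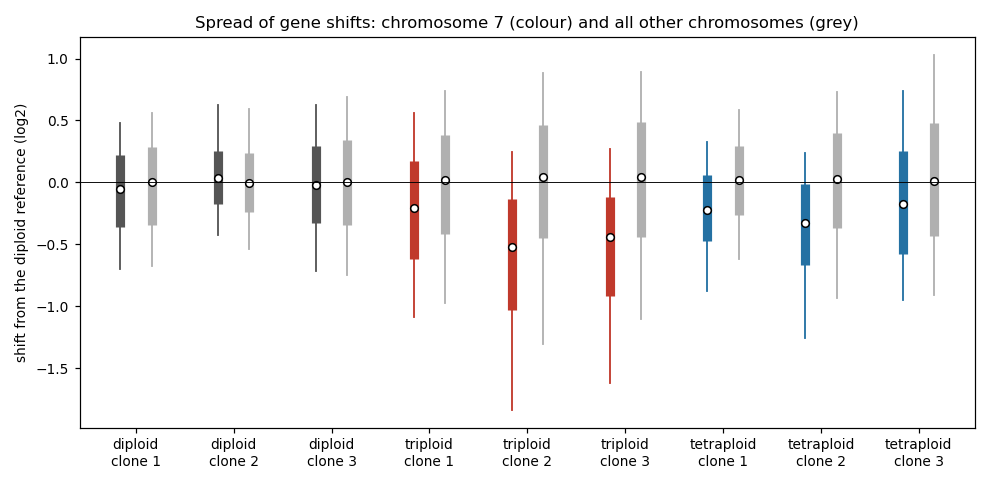
Shift from the diploid reference (log2, vertical axis) of the 984 chromosome 7 genes (colour) and the 11450 named genes of other chromosomes (grey) in each of the 9 clones. Circles are medians, thick bars the middle 50% and thin lines the 10th to 90th percentile of genes. The coloured circles lie below 0 in the 6 polyploid clones, and the grey circles lie near 0.

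In terms of gene-wise differences between group means, 769 of the 984 genes (78.2%) were lower in the triploid clones than in the diploid clones. The largest class was a difference between -1 and 0, with 581 genes (59.0%, against 37.8% of genes on other chromosomes). A further 139 genes (14.1% against 5.59%) lay between -2 and -1. Beyond -2 the share on chromosome 7 was 4.98%, against 4.31% elsewhere, so strongly lower genes were about as frequent here as on other chromosomes. Tetraploid means were lower for 708 genes (72.0%), for 633 of them by less than 1 (64.3% against 42.1% elsewhere).

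A stricter count took genes for which all 3 clones of a ploidy lay outside the range of the 3 diploid clones. In the triploid clones 350 genes (35.6%) lay below all diploid clones, where the background over all named genes was 15.0%, and 29 (2.95%) lay above, where it was 15.5%. The tetraploid clones lay below for 218 genes (22.2%), against 10.1%, and above for 17 (1.73%), against 11.7%. For 123 genes (12.5%) all 6 polyploid clones lay below all diploid clones, against 3.65% of named genes. The reverse held for 3 genes (0.305% against 3.8%): Copb1, a coat protein of Golgi vesicles, Olfr578, an olfactory receptor gene, and Scgb2b20, a secretoglobin gene. Copb1 had levels of 4.35, 4.32 and 4.02 in diploid, 4.60, 4.49 and 4.70 in triploid and 4.65, 4.49 and 4.61 in tetraploid clones 1 to 3. These counts use the same contrast that chose the chromosome, so they describe it and support nothing further.

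Few of these genes passed a test gene by gene. With limma over 21797 features and a Benjamini-Hochberg adjusted p of 0.05, 35 chromosome 7 genes were lower in triploid than in diploid clones, where 1.23% of all features were called lower. The 1 gene called higher was Saa3, where 0.615% of features were called higher. The total of 36 became 8, 14 and 7 without diploid clone 1, 2 or 3, 115, 4 and 3 when triploid clone 1, 2 or 3 was left out, and 11 when tetraploid clone 1 was. Over all features the total of 402 became 98, 195 and 144, then 1645, 64 and 72, and then 155 in the same fits. With the slide as a block the chromosome 7 total was 6, beside 81 features. With clones centred on their median it was 49, of which 48 were lower, beside 477 features. Between tetraploid and diploid clones 0 of the 984 genes were called in either direction, beside 0.0734% of features lower and 0% higher. At an unadjusted p under 0.05 the same limma fit had 121 of the 984 genes, beside 3220 of the 21797 features. With clones centred on their median 3 of the genes were called after adjustment, beside 53 features. Leaving out diploid clone 1 or triploid clone 1 gave 1 call, beside 3 and 23 features. Leaving out diploid clone 3 or tetraploid clone 2 gave 2, beside 112 and 34 features. Between triploid and tetraploid clones 29 were lower in the triploid clones and 5 higher, beside 1.62% and 1.09% of features. The 5 were Saa3, Rab38, the epithelial receptor gene Lsr, the phosphatase gene Inppl1 and the chloride channel gene Ano1. The total of 34 in this comparison became 14 without diploid clone 1. It became 95, 14 and 8 without triploid clone 1, 2 or 3, and 9, 59 and 9 without tetraploid clone 1, 2 or 3. Over all features the total of 591 became 279, then 1616, 142 and 136, and then 165, 1008 and 147 in the same fits. Nothing is read from these counts, since the contrast entered the choice of the chromosome.

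Along the chromosome the shift was even. Genes were placed in the order of the RefSeq table, and the median shift was taken in 39 consecutive windows, 38 of 25 genes and the last of 34. Triploid clones 2 and 3 and tetraploid clones 1 and 2 were below 0 in all 39 windows. Triploid clone 1 was below 0 in 36 and tetraploid clone 3 in 35. Diploid clones 1 to 3 were below 0 in 26, 12 and 21 windows. All 6 polyploid clones were below 0 together in 32 of the 39 windows (82.1%), against 37 of 451 windows (8.20%) on the other chromosomes, X included. All 6 were below all 3 diploid clones in 17 of 39 windows, against 11 of 451. With arrays scaled to their 75th percentile alone, 22 of the 39 windows were below 0 in all 6.

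**Figure D2:**
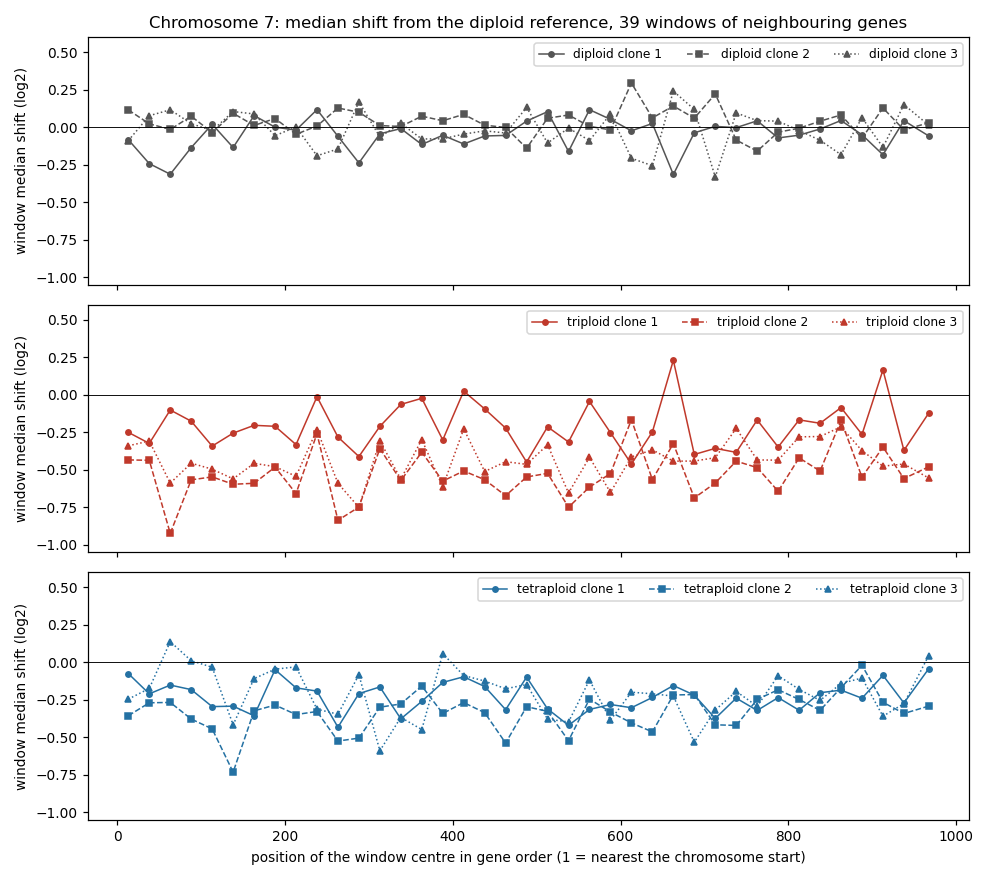
Median shift (log2, vertical axis) in 39 windows of neighbouring chromosome 7 genes, plotted at the window centre in gene order (horizontal axis), with 1 line per clone and 1 panel per ploidy. The diploid lines stay around 0, and the lines of triploid clones 2 and 3 and tetraploid clones 1 and 2 stay below 0 in all windows.

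No window stood out in all clones of a ploidy in the opposite direction. Values above 0 in the triploid group came from triploid clone 1 alone, in windows 17 (Rcn3 to Ppp1r15a, 0.02), 27 (Olfr544 to Arfip2, 0.23) and 37 (Fuom to Lmntd2, 0.16). Values above 0 in the tetraploid group came from tetraploid clone 3 alone, in 4 windows, among them 3 (Zfp444 to Zscan22, 0.14), 16 (Pold1 to Nosip, 0.06) and 39 (Krtap5-5 to Mrgprf, 0.04). Window 27 also had the widest diploid spread, with -0.32, 0.14 and 0.24 in diploid clones 1 to 3.

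The lowest triploid window was the twelfth, from Zfp82, a zinc finger gene, to Kmt2b, a histone methyltransferase gene, by the mean of the 3 clones. Its medians were -0.41, -0.75 and -0.75 in the triploid clones and -0.21, -0.50 and -0.08 in the tetraploid clones, beside -0.24, 0.10 and 0.17 in the diploid clones. By the same mean the smallest triploid shift was in window 35, from Mcmbp to Ctbp2, with -0.09, -0.17 and -0.21 in the triploid and -0.19, -0.17 and -0.14 in the tetraploid clones. There the diploid clones stood at 0.04, 0.08 and -0.18, so diploid clone 3 overlapped both groups. The lowest tetraploid window by mean was the sixth, from Qpctl to Nectin2, with -0.29, -0.73 and -0.42, and the one nearest to 0 was window 3, with -0.15, -0.27 and 0.14.

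Cutting the order into 4 blocks of 246 genes gave nearly the same value in each. Triploid means were -0.40, -0.43, -0.40 and -0.35 from the first block to the last, with SDs of 0.14 to 0.22 between clones. Tetraploid means were -0.21, -0.24, -0.29 and -0.23, with SDs of 0.03 to 0.13. The differences between blocks were smaller than the spread between clones of a ploidy in the triploid group. A least-squares partition of each clone's shifts, with segments of at least 20 genes, left the chromosome in 1 segment in 8 of 9 clones, from D7Ertd143e, the first gene kept, to Mrgprf, the last. A lone segment was also the usual result of this partition: 10 to 20 of the 20 chromosomes were left in 1 segment, depending on the clone.

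The exception was tetraploid clone 2, which was divided into 3 segments. The first ran from D7Ertd143e to Wee1, a kinase gene that restrains entry into mitosis, over 700 genes at a median of -0.35. The second ran from Swap70 to Cyp2r1 over 20 genes at -0.91, and the third from 1110004F10Rik to Mrgprf over 264 genes at -0.26. The 20 genes include Adm, which encodes the vasodilator peptide adrenomedullin, Dkk3, a secreted Dickkopf family protein, Tead1, a Hippo pathway transcription factor, and Arntl, a core clock gene. In the other clones their median was 0.13, 0.17 and -0.41 in diploid clones 1 to 3, -0.53, -0.74 and -0.39 in triploid clones 1 to 3 and -0.41 and -0.24 in tetraploid clones 1 and 3. Diploid clone 3 thus reached the polyploid range in this block, and no other clone was divided there. With segments of at least 40 genes the second segment merged with the first.

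Chromosome 7 ranked at or near the bottom of the 20 chromosomes in the polyploid clones. Counted from the lowest median, its place was 3, 2 and 1 in triploid clones 1 to 3 and 1, 1 and 4 in tetraploid clones 1 to 3. In the diploid clones its place was 1, 20 and 6. As a group mean it was the lowest chromosome in the triploid and in the tetraploid clones, next to chromosome 12 at -0.36 ± 0.30 (SD, n = 3) and chromosome 4 at -0.15 ± 0.03 (SD, n = 3). Chromosome 12 in triploid clone 1 reached -0.70, and X in triploid clones 2 and 3 reached -0.56 and -0.41, with 0.12 in triploid clone 1. Only chromosomes 1, 7 and 12 had medians below 0 in all 6 polyploid clones, and only 1 and 7 had all 6 below all 3 diploid clones. For chromosome 1 the means were -0.14 in each polyploid group.

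**Figure D3:**
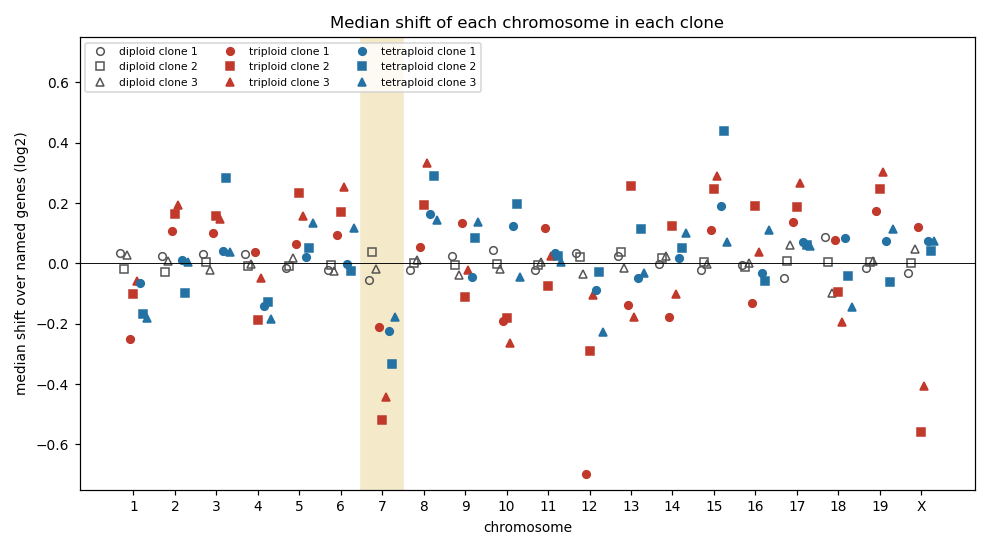
Median shift (log2, vertical axis) over the named genes of each chromosome (horizontal axis), with 1 point per clone; open symbols are diploid and filled symbols polyploid clones, and chromosome 7 is shaded. The 6 polyploid points of chromosome 7 lie between -0.52 and -0.18, below its 3 diploid points.

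The chromosome's genes were dimmer than others, with a median level of 0.99 against 1.56 on other chromosomes. RefSeq start regions matched 86.0% of the 984 genes, with a median GC share of 58.3% over 300 bases around the start. They matched 79.5% of the other genes, under the 80% taken as enough, so a comparison of GC with other chromosomes is void. Within chromosome 7 the shift was present at both ends of each scale. The brighter 492 genes had a triploid mean of -0.42 and a tetraploid mean of -0.24, and the dimmer 492 had -0.35 and -0.26. The 427 genes with GC-richer starts had -0.44 and -0.25, and the 419 with GC-poorer starts had -0.35 and -0.24. A second probe, available for 216 genes, gave -0.44 and -0.27. The 858 genes above background on all 9 arrays gave -0.39 and -0.25.

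The array also holds probes without a gene name, placed by coordinates on build mm9. Of these, 210 on chromosome 7 were kept of 731, between positions 3338500 and 150233950, and 4200 elsewhere of 15431. Their shifts followed the clone more than the chromosome. On chromosome 7 the medians were 0.22, -0.20 and -0.29 in triploid clones 1 to 3 against 0.14, -0.07 and -0.17 elsewhere. In tetraploid clones 1 to 3 they were -0.25, -0.22 and -0.52 against -0.20, -0.14 and -0.52. The distance between chromosome 7 and the rest was thus smaller for these probes than for the named genes, and in triploid clone 1 it was above 0. Whether their dimness has a part in this was not tested.

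The filter on dim probes set the edge of the gene set. Of the 984 genes, 858 passed in all 3 ploidies, 60 in 2 and 66 in 1 only. Those 66 had a median level of -3.03 and group means of the clone medians of -0.30 in the triploid and -0.26 in the tetraploid clones. Just outside, 75 genes were above background on 2 arrays in the ploidy where they had most, with a median level of -3.77 and group means of -0.02 and -0.35. Of the 984 genes, 4 were not above background in any diploid clone, 11 in any triploid clone and 8 in any tetraploid clone.

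Gene groups on the chromosome mostly followed the common shift, with some departures in size. Counts of list members outside the diploid range stand beside shares below it of 35.6% in triploid and 22.2% in tetraploid clones for the whole chromosome, and of 15.0% and 10.1% for all named genes. Medians of lists depend on the scaling, and with 75th percentile scaling alone every list's median was higher by the same amount as the chromosome's, which was -0.27 and -0.14 on that scale. Tetraploid medians were then -0.16 for zinc finger genes and -0.12 for matrix genes, the triploid median of ribosomal protein genes was -0.17, and DNA repair genes had -0.13 and -0.08. Among 75 kept zinc finger genes, which encode mostly DNA-binding repressors, 65 were lower in the triploid and 57 in the tetraploid group mean. Their median shift was -0.44 ± 0.16 (SD, n = 3) and -0.26 ± 0.16, close to the chromosome's. All 3 triploid clones lay below the diploid range for 33 of the 75 and above it for 1, Zfp428, beside the 35.6% and 2.95% of the chromosome. For the tetraploid clones these numbers were 23 below and 2 above, Zfp110 and Zfp524. Zfp771 had levels of 5.61, 5.76 and 5.78 in diploid, 5.56, 5.32 and 5.35 in triploid and 5.59, 5.56 and 5.43 in tetraploid clones 1 to 3, a small step with no overlap. Zfp658 was lower in the tetraploid clones, at 5.26, 5.97 and 4.97 against 6.41, 6.45 and 6.63 in the diploid clones.

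All 7 genes of the apoptosis list were lower in both group means, with medians of -0.52 ± 0.08 (SD, n = 3) and -0.35 ± 0.10. Of all chromosome 7 genes 78.2% and 72.0% were lower in these means. The list was drawn broadly and also held Bcat2 and Spns1, so it is not of cell death genes alone. Bax, which permeabilises mitochondria, had levels of 5.03, 5.19 and 5.69 in diploid clones 1 to 3, 4.68, 4.20 and 4.45 in the triploid and 5.01, 5.01 and 4.61 in the tetraploid clones. All 6 polyploid values lay below the diploid ones, tetraploid clones 1 and 2 only just, with mean differences of -0.86 ± 0.24 and -0.43 ± 0.23. Beside Bax, Bcl2l12 lay below the diploid range in the triploid clones and Pycard, an inflammasome adaptor gene, in the tetraploid clones. Spns1, a lysosomal lipid transporter, had differences of -0.46 ± 0.22 and -0.48 ± 0.26, with overlapping ranges.

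Of 26 genes of the cell cycle and growth signalling, 21 were lower in the triploid and 15 in the tetraploid mean, with medians of -0.38 ± 0.04 (SD, n = 3) and -0.16 ± 0.18. With 75th percentile scaling alone the medians were -0.27 and -0.05. The triploid clones lay below the diploid range for 10 of 26, and the tetraploid clones for 5 of 26, near the chromosome's 35.6% and 22.2%. The 5 were the cyclin gene Ccne1, Wee1, the receptor kinase gene Axl, the small GTPase gene Rras2 and the kinase gene Dyrk1b. The 4 brightest on average over all 9 arrays, an average that places lowered genes further down, were Pak4, Cd151, Plk1 and Bub3. Pak4, a kinase of the cytoskeleton, differed by 0.29 ± 0.15 and 0.08 ± 0.03, and Cd151, a tetraspanin of cell adhesion, by 0.39 ± 0.11 and -0.51 ± 0.32. The diploid SDs were 0.50 for Pak4 and 0.45 for Cd151, and the diploid ranges overlapped both groups. Plk1, a kinase that drives mitosis, and Bub3, part of the spindle checkpoint, stayed within 0.14 of the diploid mean in both groups. Chosen after their values were seen, 2 growth regulators of those 10 are given too. Igf1r, the receptor of insulin-like growth factors, had levels of 2.61, 2.30 and 2.88 in diploid, 1.29, 1.05 and 1.03 in triploid and 2.10, 1.29 and 2.59 in tetraploid clones. Ccnd1, the G1 cyclin D1, had 5.69, 5.13 and 5.96 in diploid, 4.54, 3.53 and 3.05 in triploid and 5.43, 4.75 and 6.09 in tetraploid clones. In both, the triploid clones lay below all others, for Igf1r only just, with triploid clone 1 and tetraploid clone 2 both at 1.29.

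DNA repair and replication genes were split. Of 15 genes, 10 were lower in the triploid and 9 in the tetraploid mean, with medians of -0.25 ± 0.24 (SD, n = 3) and -0.18 ± 0.06. Lig1, the ligase of replicated DNA, was higher by 0.41 ± 0.17 and 0.44 ± 0.19, and its diploid range overlapped both groups. Rrm1, a subunit of ribonucleotide reductase, differed by 0.57 ± 0.46 and 0.03 ± 0.23. In the tetraploid clones the 3 genes below the diploid range were Ercc1 and Ercc2, both of nucleotide excision repair, and Palb2, a partner of Brca2. Ercc1 had levels of 4.18, 3.96 and 4.46 in diploid, 2.59, 1.94 and 2.13 in triploid and 3.36, 3.0 and 3.41 in tetraploid clones 1 to 3. It separated the 3 ploidies without overlap, the triploid clones lowest. Ercc2 had 0.98, 1.24 and 1.55 in diploid, 0.63, 0.27 and 0.41 in triploid and -0.08, -0.10 and -0.24 in tetraploid clones, so there the tetraploid clones were lowest.

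Ribosomal protein genes shifted with the clone rather than the ploidy. All 14 were lower in both group means, with medians of -0.29 ± 0.42 (SD, n = 3) and -0.46 ± 0.28, but the spread was wide, and after quantile scaling the medians were -0.27 and -0.21. Triploid clone 1 stood at 0.19 and diploid clone 1 at -0.49, level with triploid clones 2 and 3 at -0.50 and -0.57. Rps16, of the small subunit, had 9.97, 10.53 and 10.60 in diploid, 10.60, 9.91 and 9.81 in triploid and 10.13, 10.03 and 9.61 in tetraploid clones. No ribosomal protein gene lay outside the diploid range in the triploid clones, and 4 lay below it in the tetraploid clones, Rps19, Rpl13a, Rps15a and Rps3. Zfp628, listed with the zinc fingers, had levels of 9.83, 10.24 and 10.27 in diploid and 10.43, 9.89 and 9.70 in triploid clones, in the same order as Rps16 within each ploidy.

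Of the 4 proteasome genes, 2 were lower in the triploid mean, with a median of -0.05 ± 0.18 (SD, n = 3), and 4 in the tetraploid mean, with a median of -0.26 ± 0.31. With 75th percentile scaling alone these medians were 0.06 and -0.15. Psmd8, of the regulatory particle, was the 1 gene below the diploid range in both groups. Its levels were 5.37, 6.13 and 5.83 in diploid, 4.52, 4.46 and 4.44 in triploid and 5.11, 5.17 and 5.34 in tetraploid clones, again separating the 3 ploidies. The triploid difference was -1.31 ± 0.04 and the tetraploid -0.58 ± 0.12, where the diploid SD was 0.38. Psma1, of the core particle, differed by 0.31 ± 0.25 and -0.25 ± 0.48.

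Of 18 genes of glycolysis and mitochondria, 18 were lower in the triploid and 16 in the tetraploid mean, with medians of -0.45 ± 0.33 (SD, n = 3) and -0.34 ± 0.19. Here too diploid clone 1 was low, at -0.56. Ldha, which makes lactate, had levels of 9.68, 9.73 and 9.72 in diploid, 9.55, 9.13 and 9.26 in triploid and 9.45, 9.68 and 8.99 in tetraploid clones, with tetraploid clone 2 just below the diploid range. Aldoa, the aldolase of glycolysis, differed by -0.45 ± 0.17 and -0.26 ± 0.38, and Gpi1, glucose-6-phosphate isomerase, by -0.09 ± 0.07 and -0.48 ± 0.14. Besides Ldha and Aldoa, Gys1 and Cox7a1 lay below the diploid range in the triploid clones, and Ldha, Gpi1 and Ndufc2 did in the tetraploid clones.

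The matrix and TGF-beta list had the deepest triploid median of the lists outside the imprinted ones. Of 25 genes, 19 were lower, with medians of -0.51, -0.96 and -0.97 in triploid clones 1 to 3. The triploid clones lay below the diploid range for 8 of 25, beside 35.6% of the chromosome. The list was drawn broadly. It also held Hspb6, Tnni2, Fxyd5 and Emp3, with triploid differences of -2.11, -2.30, -2.73 and -3.12, so its median is not of matrix genes alone. Tetraploid means were lower for 17, with a median of -0.22 ± 0.12 (SD, n = 3). Mfge8, a secreted protein that bridges dying cells to phagocytes, had 8.34, 7.62 and 8.57 in diploid, 7.35, 6.89 and 6.98 in triploid and 8.65, 8.41 and 8.78 in tetraploid clones. Only its triploid clones lay below the diploid range. Ilk, a kinase at integrin contacts, differed by -0.80 ± 0.30 and -0.26 ± 0.06. Serpinh1, the collagen chaperone, differed by 0.02 ± 0.28 and -0.06 ± 0.12. The integrin gene Itgam and the protease gene Ctsc were the 2 below the diploid range in the tetraploid clones.

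Chaperone and stress genes had a median of -0.23 ± 0.09 (SD, n = 3) in the triploid clones, with 8 of 13 lower. Tetraploid means were lower for 7 of 13, and the median was near 0, at 0.10 with 75th percentile scaling alone and 0.06 after normexp correction. Nupr1, a stress-induced nuclear protein, had 5.76, 6.04 and 7.10 in diploid, 3.95, 4.97 and 4.87 in triploid and 6.30, 6.20 and 6.78 in tetraploid clones. Egln2, an oxygen-sensing hydroxylase, differed by -0.22 ± 0.07 in the triploid clones, below the diploid range, and by -0.04 ± 0.18 in the tetraploid clones. The others below the range in the triploid clones were Hspb6, Sirt2 and Fosb, and in the tetraploid clones Fosb alone.

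**Figure D4:**
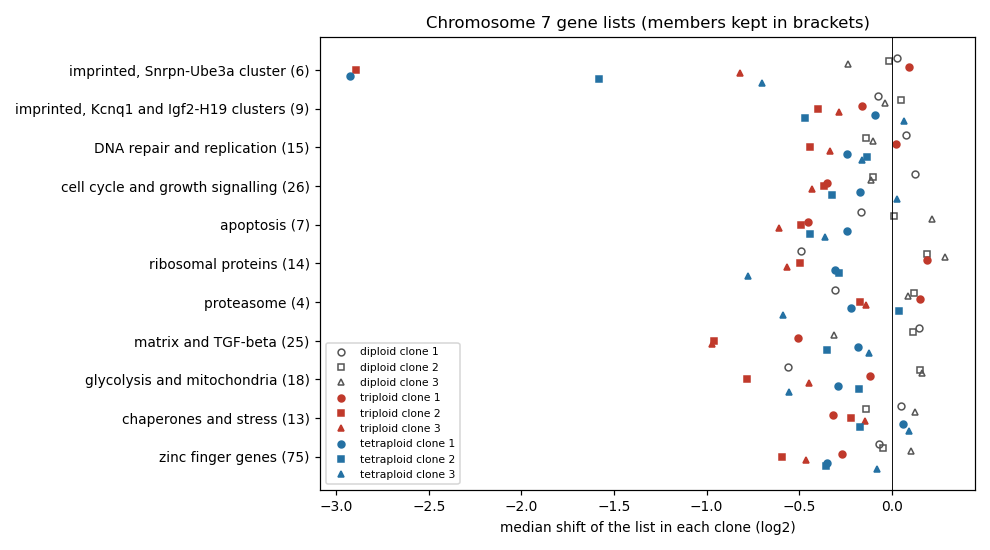
Median shift (log2, horizontal axis) of chromosome 7 gene lists (vertical axis, number of genes kept in brackets), with 1 point per clone. The apoptosis list lies at -0.24 or below in all 6 polyploid clones, and ribosomal protein genes of diploid clone 1 lie at -0.49, among the polyploid points.

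The imprinted Snrpn to Ube3a cluster varied most between clones. Its median over 6 genes was 0.09, -2.89 and -0.82 in triploid clones 1 to 3 and -2.93, -1.58 and -0.70 in tetraploid clones 1 to 3. Snrpn, a splicing protein gene expressed from the paternal copy, had levels of 0.60, 0.84 and 1.13 in diploid, 0.17, -4.69 and -0.79 in triploid and -4.90, -0.63 and 1.01 in tetraploid clones. Ndn, a paternally expressed growth regulator, had 1.69, 2.27 and 1.27 in diploid, 2.17, -2.88 and -2.67 in triploid and -1.26, -1.55 and 0.27 in tetraploid clones. Peg12, also expressed from the paternal copy, stayed at 1.44 in triploid clone 1 and lay at -6.08 and -5.84 in triploid clones 2 and 3, with 1 of 3 triploid arrays above background. Snrpn was above background on 2 of 3 arrays in each polyploid group. Ube3a and Atp10a, their neighbours, differed by at most 0.40 in group means, so the low values did not extend over the whole cluster. Besides Ndn and Peg12, Mkrn3 lay below the diploid range in the tetraploid clones, and Snrpn alone did in the triploid clones.

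At the far end of the chromosome, 9 of 16 listed genes on the array were kept for the Kcnq1 and Igf2 to H19 clusters. They were Ins2, Th, Tspan32, Cd81, Tssc4, Kcnq1ot1, Slc22a18, Nap1l4 and Osbpl5, so Kcnq1, Igf2 and H19 themselves were not among them. Slc22a18 was not above background in any triploid clone, and Kcnq1ot1 was on 1 of 3 tetraploid arrays. The 9 genes had medians of -0.28 ± 0.12 (SD, n = 3) in the triploid and -0.16 ± 0.28 in the tetraploid clones. With 75th percentile scaling alone these were -0.16 and -0.06, and after normexp correction -0.24 and -0.05. Osbpl5, a lipid transfer protein gene, had 4.58, 4.41 and 5.08 in diploid, 3.47, 3.73 and 3.72 in triploid and 4.34, 3.23 and 4.77 in tetraploid clones. Below the diploid range in the triploid clones were Osbpl5, the tetraspanin gene Cd81, Tssc4 and Nap1l4. In the tetraploid clones Nap1l4 and the long noncoding RNA Kcnq1ot1 lay below it and Tssc4 above it.

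The genes furthest from the diploid clones lay far beyond the common shift. Lrrc32, which anchors latent TGF-beta at the cell surface, had 4.64, 3.97 and 5.53 in diploid, -0.80, -3.38 and -2.30 in triploid and 4.41, 2.45 and 5.50 in tetraploid clones. Its triploid difference was -6.87 ± 1.30. Adm had 5.23, 5.27 and 5.56 in diploid, 2.73, -4.31 and -2.23 in triploid and 4.11, 2.22 and 5.74 in tetraploid clones. It was above background on 2 of 3 triploid arrays. Triploid clone 1 was the least lowered of the 3 for both genes.

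Lmo1, a LIM-only transcription cofactor, differed by -6.44 ± 1.65, with 1 of 3 triploid arrays above background, and Ebf3, a helix-loop-helix transcription factor, by -4.65 ± 3.75, with triploid clone 1 at 1.34, clone 2 at -6.13 and 2 of 3 triploid arrays above background. Such differences rest in part on signals not above background and are not exact. Mrvi1, a smooth muscle protein that acts in cGMP signalling, was at least 7.34-fold lower, being not above background in any triploid clone. Lmo1 and Ebf3 were close to the diploid mean in the tetraploid clones, at 0.19 ± 0.54 and -0.29 ± 1.54. These genes were chosen for their triploid differences, so a smaller tetraploid one is partly built in. For Ebf3 the difference came mainly from triploid clones 2 and 3, the latter at -3.06. Tetraploid differences were -0.59 ± 1.54 for Lrrc32, -1.33 ± 1.76 for Adm and -0.81 ± 0.65 for Mrvi1.

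Fes, a cytoplasmic tyrosine kinase gene, was among the lowest in both groups. Its levels were 0.19, 1.42 and 1.98 in diploid, -2.51, -3.19 and -3.68 in triploid and -2.38, -2.49 and -0.65 in tetraploid clones. The differences were -4.32 ± 0.59 and -3.03 ± 1.03. All 6 polyploid values lay below the diploid ones, and the polyploid groups overlapped.

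In the tetraploid clones Rab38, a small GTPase of melanosome transport, was at least 9.48-fold lower, being dark in all 3, while the triploid clones had 1.86, -0.57 and 0.26. Ctsc, the protease cathepsin C, had levels of -1.30, -5.54 and -6.47 there against 0.37, 0.35 and 0.07 in the diploid clones, above background on 1 of 3 tetraploid arrays. It was also low in triploid clones 2 and 3, at -6.07 and -5.81 and above background on 1 of 3 triploid arrays, and stood at 0.88 in triploid clone 1. Rab38 and Ctsc lie in the same window of the order, the 23rd, whose median was -0.31, -0.25 and -0.12 in the tetraploid clones. Cend1, a neuronal membrane protein gene, was at least 2.84-fold lower.

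Genes that went up against the chromosome were few, and many of them were dim. Saa3, an acute-phase serum amyloid, was at least 5.25-fold higher in the triploid clones, at -1.04, -0.74 and -2.40, and not above background in any diploid or tetraploid clone. Hsd17b14, a steroid dehydrogenase gene, was higher by 1.86 ± 1.22 and Il4i1, an amino acid oxidase gene, by 1.13 ± 0.11, with a diploid SD of 0.52 for Il4i1. For Hsd17b14 triploid clone 1 lay only just above diploid clone 2, at -2.74 against -2.76. C5ar2, a complement receptor gene, was higher by 0.91 ± 0.41 and Gprc5b, an orphan receptor gene, by 0.87 ± 0.71. For Gprc5b triploid clones 2 and 3, at 0.82 and 0.78, lay only just above diploid clone 2 at 0.77. Gpr139, another receptor gene, was at least 1.17-fold higher.

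In the tetraploid clones Omp, the olfactory marker protein, was higher by 1.69 ± 0.21, but it was above background in only 1 diploid clone. Its diploid SD was 1.49. Hdgfl3, a growth factor-like protein, had levels of 1.51, 1.68 and 1.76 there, above the diploid 0.50, 0.65 and 1.29. Nucb1, a calcium-binding Golgi protein, had 4.62, 4.30 and 5.25 against 4.19, 4.03 and 3.93. Kcnn4, a calcium-gated potassium channel, was higher by 0.69 ± 0.50 in the tetraploid and lower by a log2 difference of -2.62 ± 1.50 in the triploid clones, where 2 of 3 arrays were above background. Olfr578, above background on 2 of 3 diploid arrays, was higher by 0.73 ± 0.19, and Myo7a, an unconventional myosin, by 0.66 ± 0.20.

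**Figure D5:**
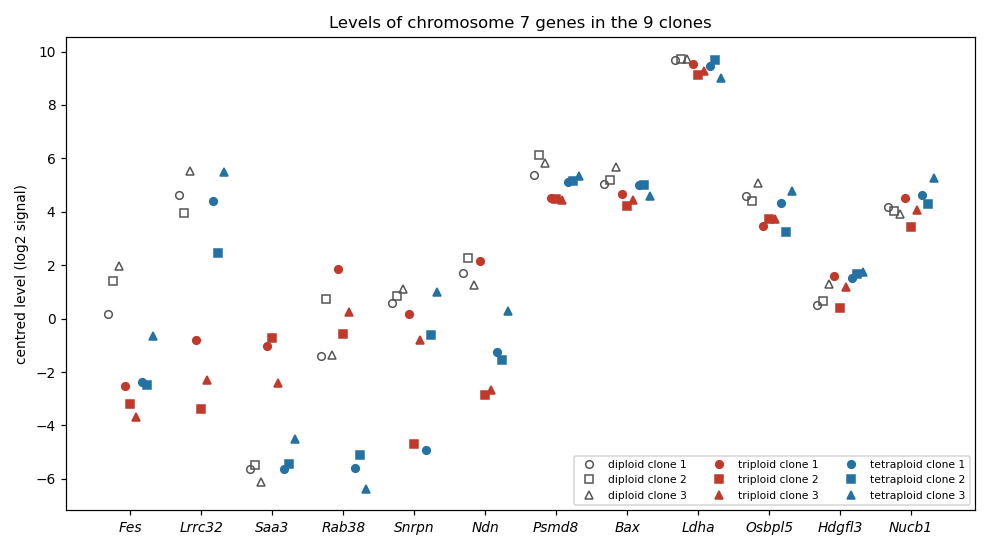
Centred levels (log2 signal, vertical axis) of 12 chromosome 7 genes in the 9 clones, open symbols diploid and filled symbols polyploid. Fes, Psmd8 and Bax lie lower in all 6 polyploid clones than in the diploid clones, and Saa3 is raised in the 3 triploid clones.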

How the data were processed

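Gene expression was measured in 9 clones on one-colour Agilent arrays with 59305 non-control spots and 55681 probes. Per the file headers, the scanner software was Feature Extraction 10.7.3.1 and the design was of build mm9. The deposited processed signal is an intensity, background-subtracted and detrended by the authors' scanner software, with no normalization between arrays. The log2 table the authors deposited held the scanner values less diploid clone 1 and less a constant per array (100% of probes to within 0.001), and served as an alternative.

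Log2 signals were averaged per probe and set to each array's 75th percentile. Accessions were named and ordered through a RefSeq table (GRCm38.p6). The array's build differs, so of that table only names, chromosome and order were used. Start regions come from a RefSeq promoter table of the same build. Windows held 25 genes. Segments came from a least-squares partition of shifts winsorised at the percentiles 2 and 98, with a penalty factor of 3. Limma 3.58.1 in R 4.3.3 was fitted with 1 mean per ploidy over 21797 features, of which 9363 were unnamed probes, and was tested on simulated data. Its main fit used the 75th percentile scale without the centring on the median. A fold against a group dark on all 3 arrays is computed against the lowest signal well above background there, and given as "at least".

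Named genes were, per polyploid group, the 6 largest shifts in each direction among genes with no overlap with the diploid clones. Added were the 2 to 4 brightest members of each list, segment ends, and genes behind counts of 5 or fewer.  The chromosome, its genes and the lists were chosen with earlier results of these data known. A list of the imprinted Peg3 cluster had no gene kept. The gene names of 1 window are not reported here. Precision is set by the 3 clones per ploidy, since arrays hold no counts. Alternatives covered centring, background, quantile scaling, filters, probe choice, blocks and leaving out each clone.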

Additional observations from a re-analysis of the deposited data

How the results depend on the processing

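The median shift of chromosome 7 was below 0 in both polyploid groups under all 24 alternatives run for each. In the triploid clones it ranged from -0.49 to -0.15, the latter with no filter on dim probes. In the tetraploid clones it ranged from -0.28 to -0.14, the latter with scaling to the 75th percentile alone. For each group this was the 1 alternative of 24 that moved the value by more than the SD between clones. Counts of called genes depended on the settings. Between triploid and diploid clones the count of 36 was 8 with no filter, 6 with the slide as a block, and 3 to 115 on leaving out single clones. Over all features the count of 402 was then 103, 81, and 64 to 1645. With clones centred on their median, 49 chromosome 7 genes were called between triploid and diploid clones, beside 477 features. Between triploid and tetraploid clones the count of 34 was 10 with no filter, 15 with the slide as a block, and 8 to 95 on leaving out single clones. Over all features the count of 591 was then 198, 282, and 136 to 1616. Between tetraploid and diploid clones the count of 0 was 3 with clones centred on their median, an alternative added after the data were seen. It was 0 to 2 on leaving out single clones. Over all features the count of 16 was then 53, and 0 to 112. The cause of these changes was not tested, and a left-out clone also lowers the number of samples. Deviations of same-numbered clones from their group means correlated at -0.13 to 0.09, and those of other pairs at -0.07 to 0.13. With 3 clones per ploidy this cannot settle whether clone numbers pair the samples. With the clone number as a replicate block the count between triploid and diploid clones was 18, beside 224 over all features. Signals near background limit the dimmest genes: differences are bounds where a group is dark on all its arrays, and not exact where it is dark on some.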
